A study of Mus musculus with 2 samples.

Results

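Actin regulators of leukocytes were examined as 10 genes chosen by name, all of them present among the 32285 genes counted in the library: Coro1a, Gmfg, Lcp1, Lsp1, Cfl1, Pfn1, Actb, Actg1, Tmsb4x and Arpc1b. The study asked what estrogen loss does to osteal macrophages (Omacs), the macrophages that line bone surfaces. Omacs were isolated from femurs and vertebrae of young adult female BALB/c mice, either ovariectomized (OVX), which removes the ovaries and lowers estrogen, or sham operated, 4 weeks after surgery. The bones were stripped of periosteum and flushed of marrow, digested with trypsin and overnight with collagenase, and the released cells were sorted with antibodies to CD11b, F4/80 and CD68. Cells of several mice were pooled for each condition, each pool was marked with its own hashtag antibody, and both were run together as 1 scRNA-Seq library, so 1 OVX pool was compared with 1 sham pool and no value below has a biological replicate. The intervals given are 95% intervals that cover counting error only.

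Migrating leukocytes push the cell front forward with a branched actin network that is built and taken apart within seconds. Actb and Actg1 encode the cytoplasmic β- and γ-actins, Tmsb4x (thymosin β4) holds actin monomers in reserve and Pfn1 (profilin) hands them to growing filament ends. Arpc1b is a subunit of the Arp2/3 complex, which starts branches, Cfl1 (cofilin) severs old filaments, Gmfg (glia maturation factor γ) takes branches apart, and Coro1a (coronin 1A) binds filaments and Arp2/3. Lcp1 (L-plastin) bundles filaments, and Lsp1 is a filament-binding protein of leukocytes. Neutrophils, which move fast and carry their granule proteins from the marrow stage on, are known for high levels of several of these genes, whereas fibroblasts and other stromal cells build stable stress fibers and use related genes for some of the same steps.

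The library held 17681092 gene UMIs (unique molecular identifiers, counted transcript molecules) in 2349 distinct barcodes, whose hashtag counts were read from the same matrix, with a median of 4387 UMIs per cell and a range of 500 to 141565. Hashtag counts put 1059 cells in OVX and 981 in sham, while 78 were called for both hashtags and 231 for neither and were left out of comparisons between conditions. The 231 cells still held a median of 773 UMIs of the sham hashtag and 55 of the OVX hashtag. Clustering without any of the 10 genes gave 7 groups of cells. Cells of 5 of them, 2018 in all, carried neutrophil markers and are called neutrophil-like. They were a cycling cluster of 38 cells (led by Hist1h3c, Hist1h1b and Esco2), an Ltf-led cluster of 93 cells (Ltf, Cebpe, Camp), a Retnla-led cluster of 358 cells (Retnla, Stfa2, Cstdc5), an Slc2a3-led cluster of 1303 cells (Slc2a3, Acod1, Entpd1) and a Gm42418-led cluster of 226 cells (Gm42418, Borcs6, Jund). The summed level of 5 secondary granule markers, which mark young neutrophils, was 25999.7 CPM (UMIs of a gene scaled to a total of 1000000 UMIs) in the cycling cluster and 37583 CPM in the Ltf-led cluster, against 12691.7, 7716 and 5371 CPM in the Slc2a3-, Retnla- and Gm42418-led clusters. A stromal-like cluster of 210 cells (led by Gng11, Saa2 and Prrx1) held Dcn at 16513 CPM and Prg4 at 25948 CPM, with Col1a1 at 17.0 CPM. The remaining 121 cells, led by Pf4, Ppbp and H2-Aa, matched no marker list well enough to be named.

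The labelled cell type, macrophage, was not what most of these cells expressed. None of 10 macrophage markers reached 100 CPM in any neutrophil-like cluster, where their summed level was 26.3 to 99.4 CPM. Over all cells Adgre1, the gene of F4/80, was at 5.20 CPM, C1qc was at 0, and Cd68 at 53.3 CPM was the highest of the C1q genes, Adgre1, Csf1r, Mrc1 and Cd68. In the Gm42418-led cluster this transcript took 211737 CPM, against 19411 CPM in all other cells. The stromal-like cells were the deepest, with a median of 19996.5 UMIs, and the least hashed, with 53.3% of them called for neither hashtag.

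Of the 10 genes, 5 separated neutrophil-like from stromal-like cells by about 30-fold or more, and the other 5 by less than 4-fold. In all, 8 of the 10 were at least 2-fold higher in the neutrophil-like cells, where 27.8% of 2150 genes, those with 100 CPM or more in one of the types, reached that fold. The median of the 10 log2 ratios was 3.44, against -0.96 for all of those genes. Together the 10 genes took 3.15% of the UMIs of neutrophil-like cells and 0.509% of those of stromal-like cells. No test was possible, since both cell types came from 1 library.

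Gmfg, Lcp1 and Coro1a had the widest separation. Coro1a was at 835 CPM in the cycling cluster, 981 in the Ltf-led, 737 in the Retnla-led, 966 in the Slc2a3-led and 1106 in the Gm42418-led cluster, against 13.7 CPM in stromal-like cells. Taken over all neutrophil-like cells it was 66.0-fold higher than in stromal-like cells (52.6 to 84.0). Gmfg was at 639, 540, 532, 641 and 428 CPM in the same order of clusters and at 6.03 CPM in stromal-like cells, a 97.4-fold difference (69.3 to 142). Among neighbors in the order of the 5 neutrophil-like levels, the Poisson intervals were apart only between the cycling and the Slc2a3-led cluster for Coro1a and between the Gm42418-led and the Retnla-led cluster for Gmfg. Gmfg had the largest ratio of the 10 genes, and its lowest neutrophil-like cluster was still far above the stromal-like level. Lcp1 was at 666, 887, 1513, 1669 and 2657 CPM in that order and at 20.3 CPM in stromal-like cells, 77.4-fold apart (64.2 to 94.1). Lsp1 was the least abundant, at 20.7, 78.0, 125, 144 and 120 CPM against 4.20 CPM, 29.9-fold apart (19.9 to 47.4), and its value in the cycling cluster rested on 11 UMIs.

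The UMIs of these genes in stromal-like cells were few. The stromal-like level was 1.52% of the neutrophil-like level for Coro1a, 1.03% for Gmfg, 1.29% for Lcp1 and 3.34% for Lsp1. Genes that mark leukocytes or neutrophils sat at a like share, with Ptprc (CD45) at 1.05%, Tyrobp at 1.30%, S100a8 at 0.653% and Mmp9 at 2.12%. Of 12 neutrophil markers the median was 1.13%, and Camp at 28.0% and Lcn2 at 47.7% were the exceptions. At these levels RNA released into the suspension cannot be told apart from expression in the stromal-like cells. After each cell was thinned to 1000 UMIs, which left out 136 neutrophil-like and 12 stromal-like cells, Coro1a was seen in 54.0% of neutrophil-like and 1.01% of stromal-like cells, where all UMIs gave 85.8% and 25.2%. Lcp1 was seen in 77.1% and 1.01% of the thinned cells, and in 96.9% and 28.1% of cells with all UMIs.

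Tmsb4x, the monomer reserve, had a ratio between the cell types nearer to those of the leukocyte genes than to those of the other widely used genes. It was at 13154 CPM in the cycling cluster, 16737 in the Ltf-led, 13730 in the Retnla-led, 15053 in the Slc2a3-led and 6740 in the Gm42418-led cluster, against 393 CPM in stromal-like cells, a ratio of 36.2 (34.7 to 37.8). Only 6 genes had more UMIs in the neutrophil-like cells, whereas in stromal-like cells it ranked 312th. Its stromal-like level was 2.76% of the neutrophil-like one, above the 2.12% of Mmp9 and below the 3.34% of Lsp1. After thinning, Tmsb4x was seen in 29.3% of stromal-like cells, against 20.2% for Cfl1, 32.3% for Pfn1 and 1.01% for Coro1a. Detection follows the level of a gene, and Tmsb4x was far more abundant than Coro1a in neutrophil-like cells. The neutrophil markers S100a8 and S100a9 stood at 728 and 1043 CPM in stromal-like cells, above Tmsb4x. For Tmsb4x, too, RNA released into the suspension cannot be told apart from expression in the stromal-like cells. The remaining 5 genes were abundant in both cell types. Actb was at 8194 to 11556 CPM over the neutrophil-like clusters and at 2325 CPM in stromal-like cells, 3.95-fold apart (3.88 to 4.03). Pfn1 was at 1169 to 1613 CPM against 466 CPM, 2.70-fold apart (2.59 to 2.82), and Arpc1b was at 534 to 750 CPM against 271 CPM, 2.63-fold apart (2.48 to 2.78). Cfl1 and Actg1 stayed under 2-fold. Cfl1 was at 388 to 642 CPM against 260 CPM, a ratio of 1.77 (1.67 to 1.88), and Actg1 was at 2429 CPM over all neutrophil-like cells against 1327 CPM, a ratio of 1.83 (1.78 to 1.88). Both passed 2-fold when the genes that took over 1% of a cluster's UMIs were left out of the total, with log2 ratios of 1.43 for Cfl1 and 1.48 for Actg1, a scaling that moved the median of all genes from -0.96 to 0.34 and the share of genes higher in neutrophil-like cells from 27.8% to 39.5% (higher in stromal-like cells, from 49.4% to 34.7%).

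**Figure D1:**
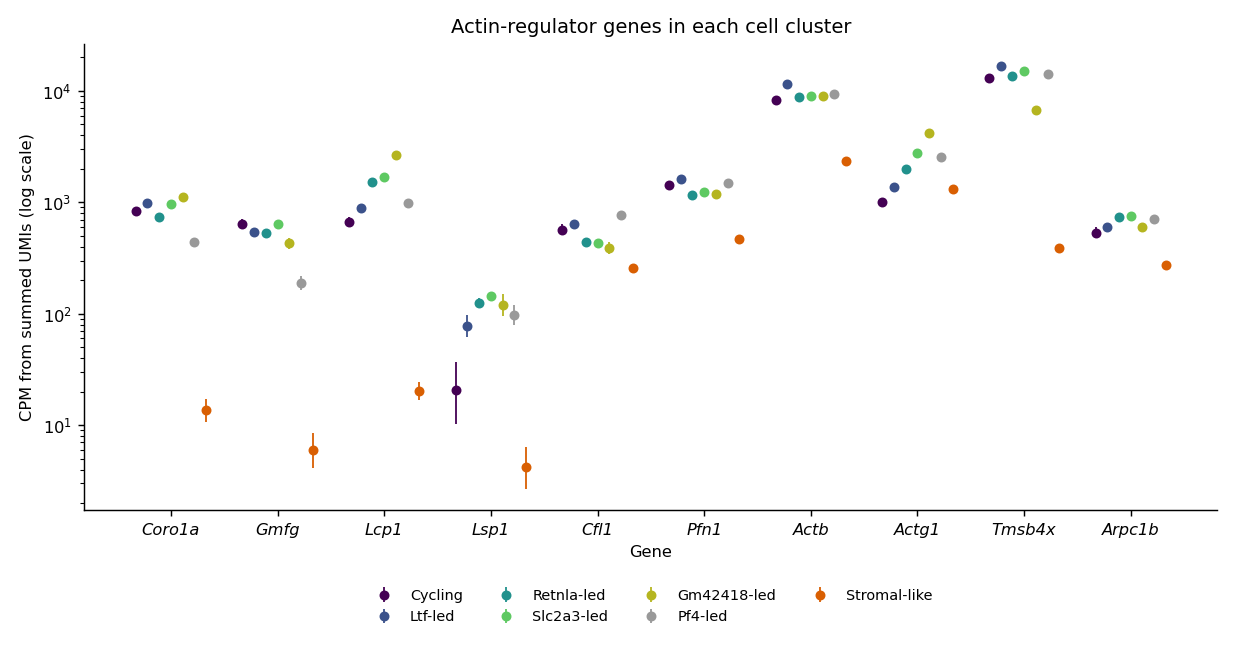
Level of each of the 10 genes (CPM from summed UMIs, log scale) in the 5 neutrophil-like clusters, the unnamed Pf4-led cluster and the stromal-like cluster, with exact 95% Poisson intervals that are smaller than the points for the abundant genes. Coro1a, Gmfg, Lcp1, Lsp1 and Tmsb4x lie far lower in stromal-like cells, while Cfl1, Pfn1, Actb, Actg1 and Arpc1b lie closer, and Actg1 in the cycling cluster (1004 CPM) lies below its stromal-like level (1327 CPM).

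The unnamed Pf4-led cluster had its own mixture. From summed UMIs it held Tmsb4x at 14305 CPM and Actb at 9277 CPM, inside the neutrophil-like range, and Lcp1 at 986 CPM. The median over its single cells was lower, at 5421 CPM for Tmsb4x and 5437 CPM for Actb. Both medians lay below those of every neutrophil-like cluster. The lowest of these were 6289 CPM for Tmsb4x (Gm42418-led) and 7806 CPM for Actb (Slc2a3-led). Coro1a at 440 CPM lay below every neutrophil-like cluster, as did Gmfg at 189 CPM, which was seen in 38.0% of its cells against 78.4% of neutrophil-like cells. Cfl1 at 766 CPM from summed UMIs was above, with its counting interval apart from, every neutrophil-like cluster. Its median over single cells was not, at 541 CPM here and 542 CPM in the Ltf-led cluster. A UMI of Cfl1 was seen in 66.9% of the Pf4-led and 96.8% of the Ltf-led cells. In this cluster the summed level of the 10 macrophage markers was 358 CPM and that of 12 neutrophil markers was 31355 CPM, against 289548 CPM in the Slc2a3-led cluster.

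Several of the 10 genes have a close relative that does the same task in other tissues, and the relatives were counted in the same cells. Pls3 (T-plastin), the relative of Lcp1, was at 1.97 CPM in neutrophil-like and 103 CPM in stromal-like cells, a neutrophil-like to stromal-like ratio of 0.0191 (0.0119 to 0.0293), and Pls1 had no UMI in either. Gmfb, the relative of Gmfg, was at 44.2 and 81.3 CPM, a ratio of 0.544 (0.477 to 0.619). Gmfb itself lay within 2-fold between the cell types, and in stromal-like cells it exceeded Gmfg (81.3 against 6.03 CPM), as Pls3 exceeded Lcp1 (103 against 20.3 CPM). Coro1b, at 6.72 and 4.20 CPM, and Coro1c, at 64.3 and 45.7 CPM, were both far below Coro1a in neutrophil-like cells, while in stromal-like cells Coro1c exceeded Coro1a (45.7 against 13.7 CPM).

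Pfn2 and Cfl2, relatives of Pfn1 and Cfl1, were also higher in stromal-like cells, but stayed below Pfn1 (466 CPM) and Cfl1 (260 CPM) there. Pfn2 was at 1.08 and 44.9 CPM in neutrophil-like and stromal-like cells, a ratio of 0.0239 (0.0122 to 0.0426), and Cfl2, the muscle cofilin, was at 11.7 and 110.5 CPM, a ratio of 0.106 (0.0873 to 0.129). Dstn (destrin), the third member of the cofilin family, was high in both, at 827 and 1123 CPM. In both it exceeded Cfl1, which was at 459 CPM in neutrophil-like and 260 CPM in stromal-like cells. Tmsb10 was at 54.2 CPM in neutrophil-like and 83.9 CPM in stromal-like cells, in contrast with the ratio of 36.2 for Tmsb4x, and Arpc1a was at 60.9 and 37.5 CPM. Counts of 3′ tags take 1 tag per molecule and do not scale with transcript length. Other differences between genes in how their molecules are counted were not measured. Levels of relatives are therefore set side by side only roughly.

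**Figure D2:**
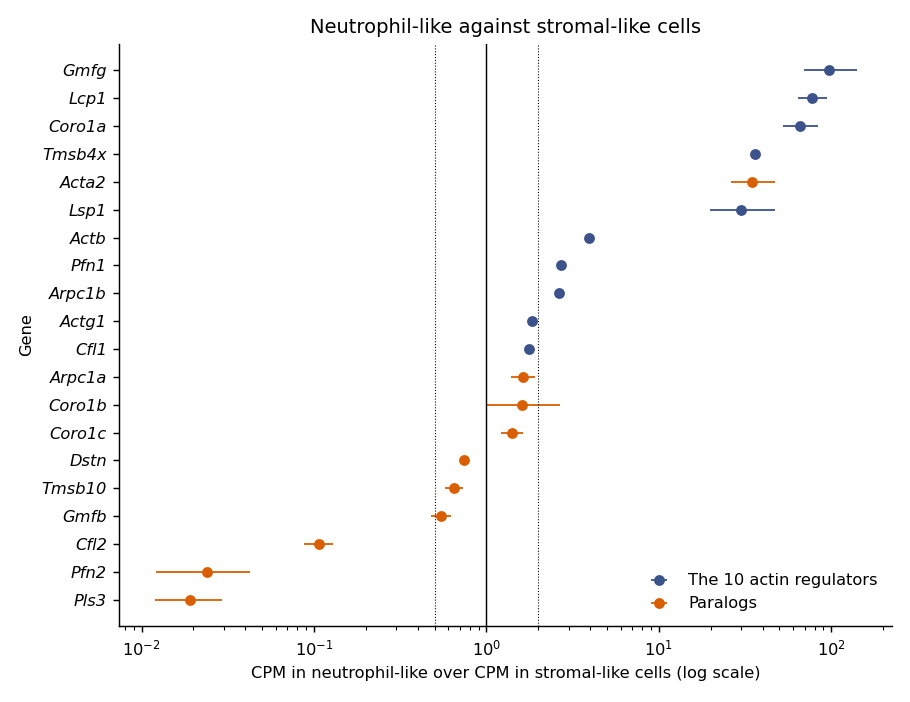
Ratio of CPM in neutrophil-like over stromal-like cells (log scale) for the 10 actin regulators and for their relatives with UMIs in both cell types, with exact 95% counting intervals, a solid line at equal levels and dotted lines at 2-fold either way. The 10 genes lie between 1.77 (Cfl1) and 97.4 (Gmfg), and Pls3, Pfn2 and Cfl2 lie at the other end, at 0.106 or less.

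The 93 other genes of a list of actin genes gave a setting for these values. Of these, 56 were at 100 CPM or more in either cell type; 30 were at least 2-fold higher in neutrophil-like cells, 10 were at least 2-fold higher in stromal-like cells and 16 lay between, where 27.8% and 49.4% of all genes at that level were higher in the one and the other. Among the 56, the largest ratios belonged to Myo1f (81.0), a myosin of blood cells, and Fmnl1 (74.4), a leukocyte formin. Next came Rac2 (71.9), the blood-cell Rac GTPase, Dock2 (65.8), which activates Rac, and Hcls1 (52.5), the blood-cell relative of cortactin. Under 100 CPM, Myo1g had a larger ratio (155, from 315 neutrophil-like UMIs and 1 stromal-like UMI), and Was (53.6) lay above Hcls1. Myo1f, Fmnl1 and Rac2 fall between Coro1a (66.0) and Gmfg (97.4), Dock2 lies just below Coro1a, and Hcls1 lies lower. The smallest ratios among the 56 belonged to Fermt2 (0.00339), a kindlin of adhesive cells, Tpm1 (0.00721), a stress-fiber tropomyosin, Nckap1 (0.0187), Pls3 and Cfl2. Under 100 CPM, Scin was lower still (0.00307, from 3 neutrophil-like and 479 stromal-like UMIs). The genes named at both ends of the 56 passed 100 CPM only in the cell type where they were higher. With the 10 genes included, among them Arpc1b, Pfn1, Tmsb4x and Cfl1, 6 of the 8 Arp2/3 genes at 100 CPM or more were higher in neutrophil-like cells. In filament turnover 3 of 7 were higher, 1 was lower and 3 lay within 2-fold. All 3 monomer-binding genes and all 3 formins at that level were higher, but the formins and Cap1 reached it in neutrophil-like cells only. Under it, Pfn2, Tmsb10, Twf1, Daam1 and Inf2 were higher in stromal-like cells, and Twf2, Diaph2 and Fmnl3 in neutrophil-like cells. The counts thus do not describe the monomer-binding genes or the formins as a whole.

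Among the neutrophil-like clusters most of the 10 genes varied little. Of the 10, 4 (Lcp1, Lsp1, Actg1 and Tmsb4x) differed at least 2-fold between the highest and the lowest cluster, where 77.9% of 1866 genes did so, and the median ratio of highest to lowest was 1.58 for the 10 genes and 3.06 for all genes compared. The share among the 10 genes was thus below the background, but the comparison is not like for like. The 10 genes were kept out of the clustering, whereas the background holds genes that shaped the clusters. It also holds genes that reached 100 CPM in a single cluster only. Whether the 10 genes are steadier than other genes cannot be read from it. The ratio was 1.38 for Pfn1 (1.30 to 1.46), 1.40 for Arpc1b (1.24 to 1.59) and 1.41 for Actb (1.36 to 1.46), the steadiest of the 10 genes. It was 1.502 for Coro1a, 1.498 for Gmfg and 1.66 for Cfl1. The groups are those of 1 library, and no test was made of these differences.

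The 4 genes that varied did so in different directions. Lcp1 was lowest in the cycling cluster at 666 CPM and in the Ltf-led cluster at 887 CPM, and highest in the Gm42418-led cluster at 2657 CPM, a ratio of 3.99 (3.56 to 4.49). Lsp1 was also lowest in the cycling cluster (20.7 CPM) and highest in the Slc2a3-led cluster (144 CPM), a ratio of 6.98 with the wide interval of 3.88 to 14.0 that 11 UMIs allow. Actg1 was at 1004 CPM in the cycling, 1366 in the Ltf-led, 1987 in the Retnla-led, 2773 in the Slc2a3-led and 4203 in the Gm42418-led cluster, a ratio of 4.19 (3.82 to 4.599). Lcp1, Lsp1 and Actg1 were therefore all lower in the 2 clusters with the most secondary granule transcripts than in the other 3. Tmsb4x went the other way for the Gm42418-led cluster, with 6740 CPM there and 16737 CPM in the Ltf-led cluster, a ratio of 2.48 (2.40 to 2.57). The Gm42418-led cluster decided this last value: without it, 3 of the 10 genes differed by at least 2-fold, without the cycling cluster 3 did, Lsp1 no longer among them, and without both only Actg1 did. With the actin genes kept among the genes that shaped the clusters, none of the 10 did.

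A division that does not rest on the borders between neutrophil-like clusters was made with 5 secondary granule genes (Camp, Ltf, Ngp, Lcn2 and Cd177). Of these, Camp, Ltf, Ngp and Lcn2 were also among the neutrophil markers that named the clusters. The neutrophil-like cells, themselves picked by cluster, were ranked on the share of their UMIs held by the 5 genes and cut into 4 equal parts. That share was 0.0448% of UMIs in part 1 and 3.03% in part 4, and the parts also differed in depth, with median UMIs of 2467, 3411, 5148 and 7220.5. Tmsb4x was at 10553, 11572, 14371 and 16662 CPM in parts 1 to 4, a ratio of part 4 to part 1 of 1.58 (1.55 to 1.61). Actb was at 6697, 7215, 9487 and 10815 CPM, a ratio of 1.61 (1.58 to 1.65), and Pfn1 was at 936, 1015.5, 1223 and 1518 CPM, a ratio of 1.62 (1.53 to 1.72). Coro1a (1.57) and Cfl1 (1.504) were higher in part 4 to a like degree, Gmfg less so (1.21), and Arpc1b was level (1.01, 0.939 to 1.09). The other 3 genes were lower where granule transcripts were more abundant. Actg1 was at 2992, 2726, 2408 and 2106 CPM, a ratio of 0.704 (0.678 to 0.730), Lcp1 at 1851, 1969.5, 1669 and 1194 CPM, a ratio of 0.645 (0.615 to 0.677), and Lsp1 at 183, 148, 119 and 100.1 CPM, a ratio of 0.546 (0.466 to 0.640). At a limit of 1.5-fold, Coro1a, Cfl1, Pfn1, Actb and Tmsb4x were higher in part 4 than in part 1, and Lcp1 and Lsp1 were lower. Among 1555 genes, 19.4% were at least 1.5-fold higher in part 4 than in part 1 and 43.7% were at least 1.5-fold lower. None of the 10 genes changed 2-fold over the parts, a fold at which no share of all genes is given.

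**Figure D3:**
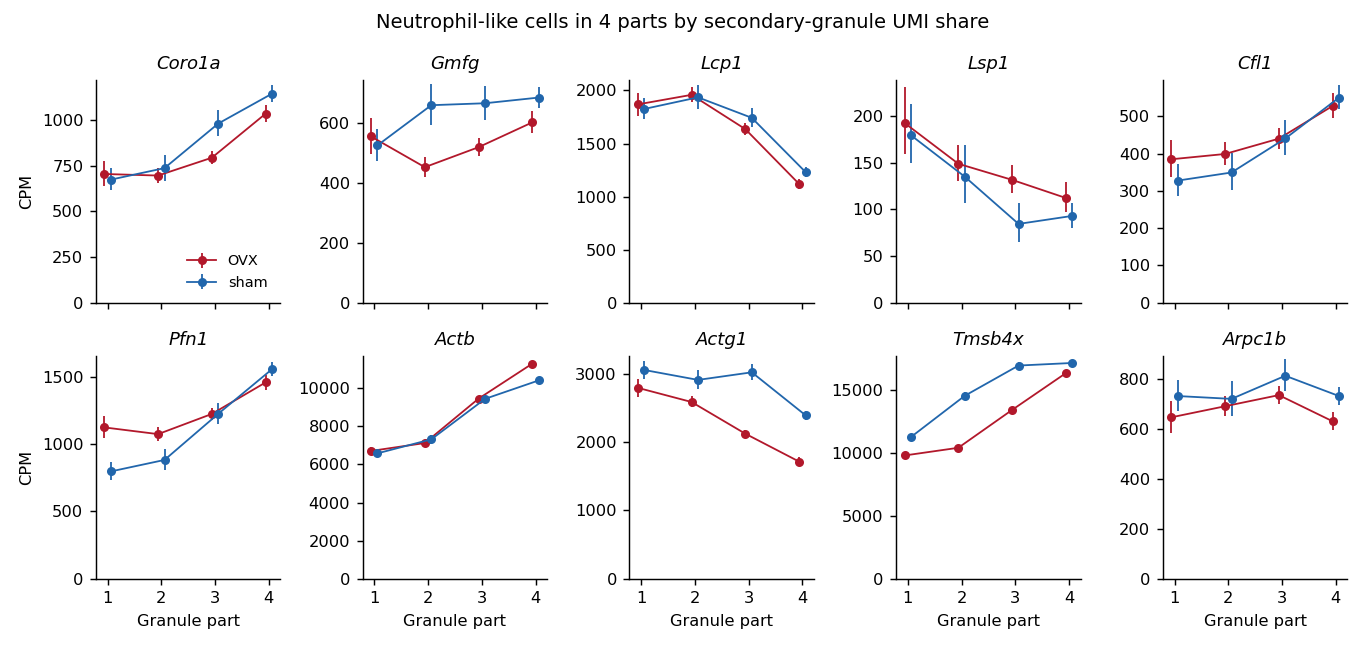
CPM of each gene (vertical axes from 0) in neutrophil-like cells cut into 4 parts by the share of UMIs on secondary granule genes, part 4 being the highest, for OVX and sham cells separately with exact 95% Poisson intervals. In both conditions Coro1a, Cfl1, Pfn1, Actb and Tmsb4x are higher in part 4 than in part 1, Lcp1, Lsp1 and Actg1 are lower, and the OVX line of Actg1 lies below the sham line in every part.

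The directions over the granule parts were alike in the OVX and the sham pool, except that Arpc1b was level in both and the OVX interval of Gmfg (1.08, 0.960 to 1.23) reached below 1. For OVX and sham cells respectively, the ratio of part 4 to part 1 was 1.68 and 1.58 for Actb, 1.67 and 1.52 for Tmsb4x, 1.47 and 1.70 for Coro1a, 0.599 and 0.674 for Lcp1, 0.583 and 0.519 for Lsp1 and 0.614 and 0.783 for Actg1. Pfn1 was the gene with the widest gap between the pools, at 1.30 (1.19 to 1.41) in OVX and 1.95 (1.79 to 2.14) in sham cells. OVX cells of part 1 held 1123 CPM of Pfn1 and sham cells of part 1 held 796 CPM. The parts were cut on both pools together, and the share of cells in each differed, with 200, 296, 296 and 192 OVX cells and 275, 171, 167 and 250 sham cells in parts 1 to 4.

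The makeup of the actin pair differed among the clusters. Of the UMIs of Actb and Actg1 together, Actg1 held 10.9% in the cycling cluster (exact binomial interval 10.1 to 11.8), 10.6% in the Ltf-led (10.04 to 11.1), 18.3% in the Retnla-led (17.9 to 18.7), 23.4% in the Slc2a3-led (23.1 to 23.7) and 32.0% in the Gm42418-led cluster (31.1 to 33.0). The cycling and the Ltf-led cluster did not differ beyond their intervals, and each later value in this order lay clear of the one before it. Stromal-like cells had the largest share, 36.3% (35.7 to 37.0), and the Pf4-led cluster had 21.6%. The coding sequences of Actb and Actg1, 1128 bases each in the GENCODE annotation of GRCm38, are 88.7% identical with a longest shared run of 62 bases, while the longest run that their 3′ untranslated regions share is 11 bases, so tags from the 3′ ends can be assigned to one or the other where they fall in those regions. How the counting treated reads that match both was not given in the sources used here.

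**Figure D4:**
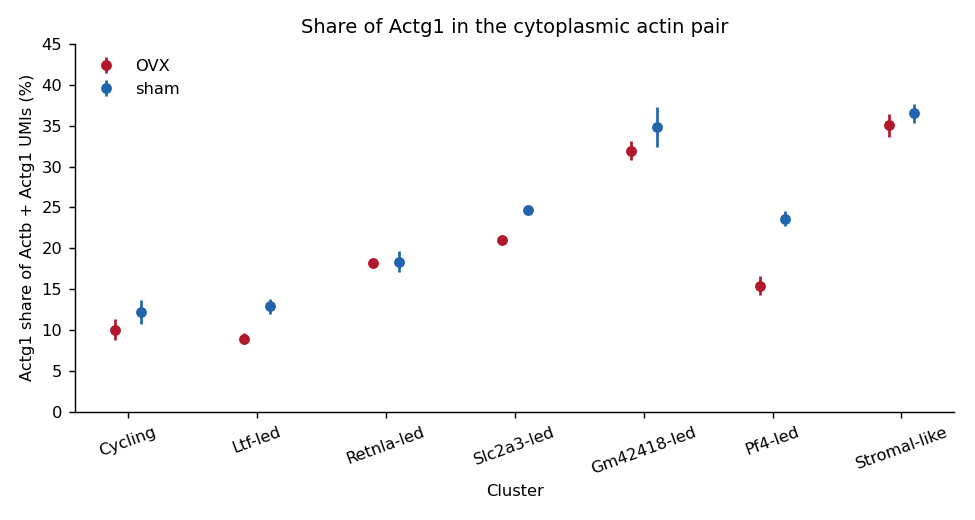
Share of Actg1 in the UMIs of Actb and Actg1 together (percent, axis from 0) for OVX and sham cells of each cluster, with exact 95% binomial intervals. The share climbs from the cycling and Ltf-led clusters to the Gm42418-led and stromal-like clusters, and in the Slc2a3-, Ltf- and Pf4-led clusters the OVX point lies below the sham point with intervals apart.

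Promoter windows from RefSeq (GRCm38.p6, 250 bases before to 50 after a start site) were at hand for 8 of the 10 genes, in 11 windows, the other genes being Actb and Lsp1. They were searched on both strands for the CArG box, the site of serum response factor that many actin genes carry, and for GAGGAAGT, the core of the site of the myeloid factor PU.1. A CArG box stood in 1 of the 11 windows, that of Actg1, and in 1.63% of 32851 windows over all genes. GAGGAAGT stood in 1 of the 11, that of Arpc1b, and in 3.2% of all windows. The stretches around both matches are given because they are the only matches among these genes, with the matched letters in capitals; the Actg1 stretch is chr11:120348566-120348595 on the minus strand and the Arpc1b stretch is chr5:145114248-145114275 on the plus strand, the latter just past the start site.
Actg1: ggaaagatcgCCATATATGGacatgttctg
Arpc1b: ccccgcccacGAGGAAGTggctgcggcg
A match is a run of letters and no measured site, and the absence of a match in the windows of Coro1a, Gmfg, Lcp1 and Tmsb4x says only that these letters are not in those windows.

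The genes lie on 5 autosomes and the X chromosome (GRCm38, GENCODE): Coro1a (chr7:126699773-126707787), Gmfg (chr7:28437447-28448233) and Lsp1 (chr7:142460809-142494867) on chromosome 7, Pfn1 (chr11:70651850-70654644) and Actg1 (chr11:120345690-120348542) on chromosome 11, Actb (chr5:142903115-142906754) and Arpc1b (chr5:145114215-145130705) on chromosome 5, Lcp1 (chr14:75131101-75230842), Cfl1 (chr19:5490455-5495201) and Tmsb4x (chrX:167207093-167209315). Arpc1a, at chr5:145083830-145108761, is the neighbor of Arpc1b. Genes of the opposite strand overlap Coro1a (Bola2, 81.6 CPM over all cells), Gmfg (Samd4b, 61.6 CPM), Arpc1b (Pdap1, 134.9 CPM) and Cfl1 (Snx32, 4.07 CPM), and also Lcp1 (Gm15628 at 0 and Gm15629 at 0.283 CPM) and Lsp1 (Prr33 at 0 CPM). Whether the counting used strand was not given in the sources used here, and these genes are uncertain to that extent.

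Between the pools the 10 genes were close to level. Over all cells no gene differed by 1.5-fold in either direction, where 6.04% of 1456 genes were that much higher and 16.3% that much lower in OVX; leaving the genes over 1% of UMIs out of the total changed this split to 8.93% higher and 8.88% lower. The OVX to sham ratios ran from 0.834 for Actg1 to 1.497 for Lsp1, which passed 1.5 under several other choices of processing, with a median of 1.00 against 0.926 for all genes. Of the 10 genes, 3 lay below 1 with their counting interval (Actg1, Cfl1 and Tmsb4x) and 3 above it (Lsp1, Lcp1 and Actb). The makeup of the pools differed: the Retnla-led cluster held 29.6% of OVX and 3.26% of sham cells, the Slc2a3-led cluster 44.3% and 72.5%, and the stromal-like cluster 3.59% and 5.50%, and OVX cells were deeper, with medians of 4812 and 3704 UMIs. With cells assigned instead where one hashtag held at least 80% of 10 or more hashtag UMIs, 28 of 956 OVX cells (2.93%) and 113 of 1166 sham cells (9.69%) were stromal-like. The values within clusters are therefore given for each gene that lay furthest from 1.

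Lsp1 was the gene with the highest ratio, at 117 CPM (OVX) against 78.5 CPM (sham) (1.34 to 1.67). In the Slc2a3-led cluster, which held most of its UMIs, it was at 156 CPM from 340 UMIs in the OVX pool and at 139 CPM from 425 UMIs in the sham pool, and the interval of the ratio, 0.969 to 1.30, covered 1. In the Retnla-led cluster it was at 135 CPM from 380 UMIs in the OVX pool and at 33.1 CPM from 10 UMIs in the sham pool, a ratio of 4.10 (2.20 to 8.61). In the Pf4-led cluster it was at 236 CPM (67 UMIs) and 48.1 CPM (35 UMIs), a ratio of 4.91 (3.21 to 7.61). By counting error alone, the interval of the largest cluster thus lay below 1.5 and those of these smaller clusters lay above it. With 1 pool per condition this sets no bound on a difference between the conditions. The share of all genes at least 1.5-fold higher in OVX was 19.1% in the cycling, 6.01% in the Ltf-led, 18.6% in the Retnla-led, 6.33% in the Slc2a3-led, 17.1% in the Gm42418-led and 11.5% in the Pf4-led cluster. The ratio was 2.11 (1.23 to 3.73) in the Ltf-led cluster, from 51 and 20 UMIs, and 2.56 (1.12 to 7.23) in the Gm42418-led cluster, from 67 and 6 UMIs, where sham cells were shallower (medians of 2656.5 UMIs in OVX and 1163.5 in sham cells). The cycling cluster had 9 and 2 UMIs, a ratio of 4.81 (0.995 to 45.7), and the stromal-like cluster 2 and 9 UMIs, a ratio of 0.275 (0.0289 to 1.33). Over granule parts 1 to 4 of the neutrophil-like cells, Lsp1 was at 192, 149, 131.5 and 112 CPM in the OVX pool and at 179, 135, 84.3 and 92.9 CPM in the sham pool, and only in part 3 were the intervals apart. With each cluster weighted equally the log2 ratio of Lsp1 was 1.27, with each cell weighted equally it was 0.25, and as given above it was 0.58.

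Actg1 was the gene whose direction was the same in every cluster. It was lower in OVX than in sham cells in all 7, at 970 and 1041 CPM in the cycling, 1215 and 1521 in the Ltf-led, 1962 and 2129 in the Retnla-led, 2375 and 2980 in the Slc2a3-led, 4159 and 4601 in the Gm42418-led, 1914 and 2759 in the Pf4-led and 1178 and 1505 CPM in the stromal-like cluster. The ratios ran from 0.694 (Pf4-led, 0.630 to 0.763) to 0.932 (cycling, 0.774 to 1.12), and the intervals of the cycling and the Retnla-led cluster (0.921, 0.849 to 1.00) reached 1. The ratios of the relatives Gmfb and Dstn were also below 1 in all 7 clusters, and no share of all genes with this pattern is given. The clusters hold cells of the same pools, so their agreement is no replication. Over all neutrophil-like cells Actg1 was at 2188 CPM (OVX) against 2702 CPM (sham), a ratio of 0.810 (0.789 to 0.830). Actb was level in the same cells, at 9139 and 9133 CPM (0.988 to 1.01), so the share of Actg1 in the pair was 19.3% in OVX (19.0 to 19.6) and 22.8% in sham neutrophil-like cells (22.5 to 23.2). Within the Retnla-led cluster that share was 18.2% in OVX and 18.3% in sham cells, with overlapping intervals.

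Coro1a, Gmfg and Tmsb4x were lower in OVX among neutrophil-like cells and closer to level over all cells. In neutrophil-like cells Coro1a was at 830 CPM (OVX) against 974 CPM (sham), a ratio of 0.852 (0.818 to 0.888), and Gmfg was at 531 and 651 CPM, a ratio of 0.816 (0.775 to 0.858). Tmsb4x was at 13172 and 15742 CPM, a ratio of 0.837 (0.828 to 0.845), and in the Retnla-led cluster at 13201 and 18678 CPM, a ratio of 0.707 (0.687 to 0.727). Sham cells of the Retnla-led cluster, 32 in number, had the highest Tmsb4x level of any cluster and condition. Among neutrophil-like clusters the interval of Coro1a lay below 1 only in the Slc2a3-led one (0.829, 0.782 to 0.879). That of Gmfg did so in the Slc2a3- and Retnla-led clusters, and that of Tmsb4x in these and the Gm42418-led cluster. In the Ltf-led cluster Coro1a (1.16, 1.02 to 1.33) and Tmsb4x (1.07, 1.04 to 1.11) were higher in OVX. Over all cells the ratios of Coro1a and Gmfg were 1.02 and 0.99, and that of Tmsb4x was 0.952; sham cells held the larger share of stromal-like cells, which carry little of these transcripts. Leaving the stromal-like cells out gave ratios of 0.917, 0.893 and 0.859. None of these ratios reached 1.5-fold, and over all neutrophil-like cells 5.62% of 1281 genes were that much higher and 5.62% that much lower in OVX.

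The remaining genes differed less in neutrophil-like cells. Over all cells Lcp1 was at 1318 CPM (OVX) against 1087 CPM (sham), a ratio of 1.21 (1.18 to 1.25). Its interval also lay above 1 in the Retnla-led (1.19, 1.08 to 1.33) and the Pf4-led cluster (1.33, 1.16 to 1.51). It covered 1 in the Slc2a3-, Gm42418- and Ltf-led and the cycling cluster, with ratios of 1.01, 1.05, 0.872 and 0.901. In neutrophil-like cells Lcp1 was at 1589 CPM (OVX) against 1531 CPM (sham) (ratio 1.04, 1.01 to 1.07), Pfn1 at 1244 and 1266 CPM (0.982, 0.948 to 1.02), Cfl1 at 450 and 462 CPM (0.973, 0.917 to 1.03) and Arpc1b at 684 and 745 CPM (0.919, 0.877 to 0.963). The intervals of Pfn1 and Cfl1 covered 1. They hold counting error only, so with 1 pool per condition they set no bound on a difference between the conditions. In stromal-like cells Lcp1 was at 37.9 CPM (OVX) against 19.3 CPM (sham) (ratio 1.96, 1.22 to 3.18), at the level set beside the leukocyte markers above, and 112 of the 210 stromal-like cells were called for neither hashtag and are in neither value. Of the 56 other actin genes described above, 48 reached 100 CPM in neutrophil-like cells of at least one pool. Of these, 3 were at least 1.5-fold higher in OVX (Acta2, Svil and Gsn), none was that much lower, and the median ratio of the 48 was 0.896. Over all 1281 genes compared in these cells, 5.62% were that much higher and 5.62% that much lower, with a median ratio of 0.947. The share that was higher was thus near that of all genes. Without the limit of 100 CPM over all cells of a type, an alternative chosen after seeing the data, 4 of 51 genes were that much higher, the added one being Enah (128.0 CPM in OVX, 48.4 CPM in sham, ratio 2.64).

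**Figure D5:**
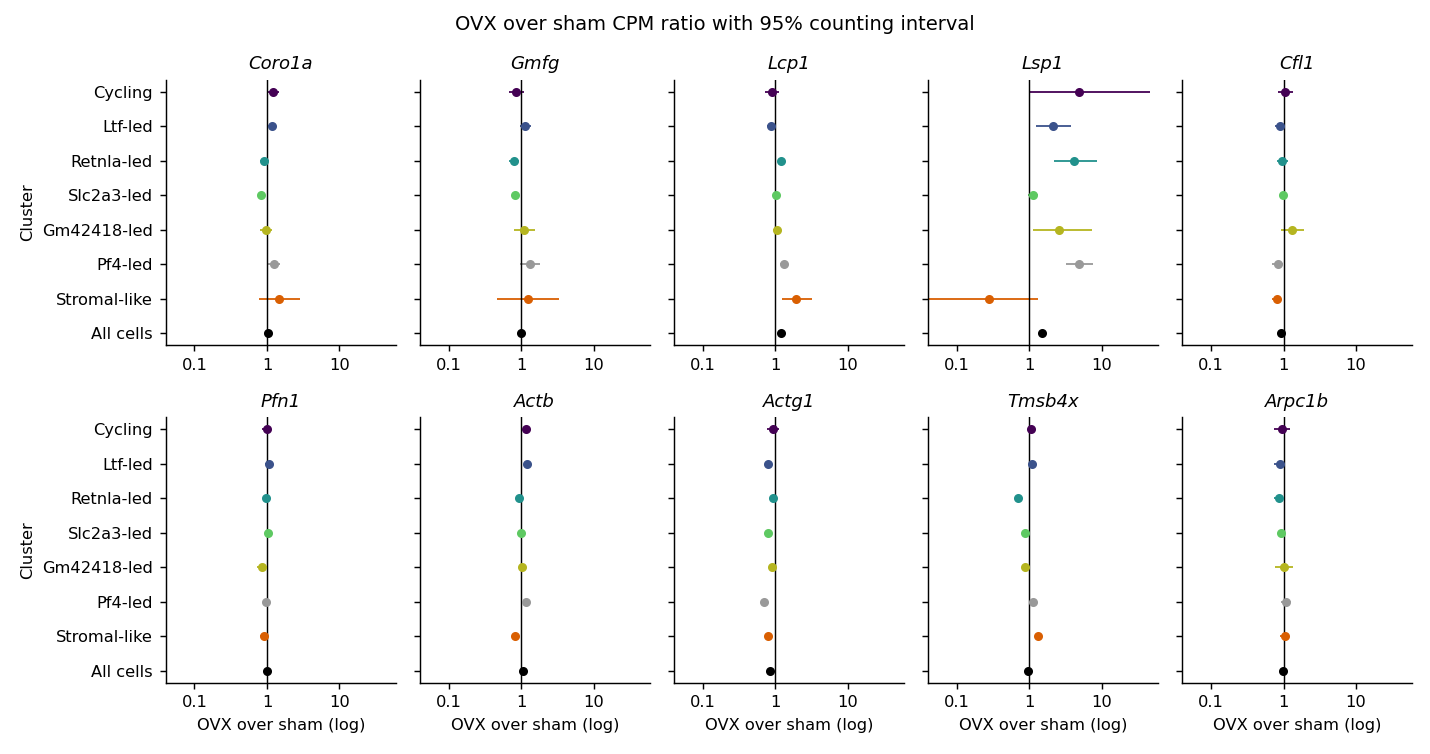
OVX over sham ratio of CPM (log scale) for each of the 10 genes in each cluster and over all cells, with exact 95% counting intervals and a line at equal levels. Most points lie near 1, Actg1 lies to the left of 1 in all 7 clusters, and Lsp1 lies to the right in 6 clusters with wide intervals where UMIs were few.

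Across the 7 clusters the genes most like each of the 10, by the Pearson correlation of log2(CPM + 1) among 2720 genes at 100 CPM or more in any cluster, were Treml2, Cd37 and Dock2 for Coro1a (r of 0.996 to 0.999), Adgrg3, Smpd5 and Arhgap45 for Gmfg (0.994 to 0.996), Plek, Itgam and Lcp2 for Lcp1 (0.996 to 0.999) and Samhd1, Nlrp3 and Capza1 for Lsp1 (0.982 to 0.992). Tmsb4x was most like Igsf6, Fcer1g and Bcl2a1b (0.985 to 0.995), Actb most like Atp8b4, Rps6ka1 and Arhgap30 (0.989 to 0.995) and Pfn1 most like AI662270, Unc93b1 and Tm6sf1 (0.982 to 0.9904). For Arpc1b they were Slc15a3, Tuba1a and Pxk (0.984 to 0.987), for Cfl1 Psmb8, Atpif1 and Psme1 (0.974 to 0.985), and for Actg1 Rap1b, Tmem43 and Arf5 (0.973 to 0.988). Among the 10 genes themselves Coro1a and Gmfg were closest (r = 0.988), while the r of Actg1 was 0.679 to Lsp1, 0.566 to Lcp1, 0.312 to Actb and -0.0476 to Cfl1. These values rest on 7 groups from 1 library, of which the stromal-like cluster lies far from the others. A high r can therefore rest largely on that cluster and does not give the order of the others. Among neutrophil-like clusters the Gm42418-led one was the highest for Coro1a (1106 CPM) and the lowest for Gmfg (428 CPM).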

How the data were processed

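The data were 1 scRNA-Seq gene expression library with its hashtag library (10x 3′ chemistry), in which an OVX pool and a sham pool were run together. The authors aligned and counted reads with Cell Ranger (6.0.0 in the file header, 6.0.1 per the labels) against mm10 and deposited whole-number UMI counts per gene and hashtag, without normalization, for barcodes already called as cells.

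HTODemux of Seurat 5.3.0 (R 4.3.3), at a positive quantile of 0.99, assigned each barcode from its hashtag counts. Cells were clustered with scanpy 1.11.5 and Louvain clustering of igraph 0.11.9 (Python 3.11.15), on a graph of 15 neighbors in 30 principal components of 2000 variable genes. The resolution was the lowest to give 6 clusters, after which the cluster highest in Mki67 and Top2a was divided again. The 10 genes and a list of 103 actin genes that includes them were left out of the variable genes. A cluster took the name of the marker list with the most markers at 100 CPM or more and near their highest level (a ratio of 0.25 or more), with at least 3 of them. No barcode was removed; Scrublet marked 1 doublet (0.0426%), so it had not worked on these cells and doublets remain untreated.

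Levels are CPM, the UMIs of a gene summed over the cells of a group per 1000000 UMIs. Intervals are exact (Poisson for a level, binomial for a share and, conditional on the sum, for a ratio) and cover counting error only. Folds of 2 (cell types and clusters) and 1.5 (conditions) set the counts, over genes that reached 100 CPM in at least one group compared. With 1 library no test was run. The code was checked on simulated counts. Named were the 10 genes, their relatives, the 3 genes most like each of the 10 and the 3 leading genes of each cluster. Also named were the 5 largest and 5 smallest ratios among the other actin genes at 100 CPM or more in either cell type. Other genes were named after their values were seen. The genes and lists were chosen with earlier results of these data known. Alternatives varied the cells kept, doublets, variable genes, neighbors, clustering method, number of clusters, weight of cells, depth, scaling, hashtag rule and stages.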

Additional observations from a re-analysis of the deposited data

Results flagged for a closer look

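Of the 10 genes, 3 had OVX to sham ratios whose counting intervals lay on opposite sides of 1 in different clusters. Coro1a had a ratio of 1.25 in the Pf4-led cluster and 0.829 in the Slc2a3-led cluster. Actb had a ratio of 1.20 in the Ltf-led cluster and 0.836 in the stromal-like cluster. Tmsb4x had a ratio of 1.31 in the stromal-like cluster and 0.707 in the Retnla-led cluster. With 1 pool per condition the difference between clusters was not tested for any of them, and the Retnla-led cluster had 32 sham cells and the stromal-like cluster 38 OVX and 54 sham cells.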

How the results depend on the processing

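The count of genes at least 2-fold higher in neutrophil-like than in stromal-like cells was 8, and 8 to 10 under every alternative tried for it. The genes that passed were not the same throughout. Over the alternatives the log2 ratio of Arpc1b went down to 0.977, under the limit, and that of Cfl1 went up to 1.43. The count of genes that differed 2-fold among neutrophil-like clusters was 4. It became 0 with the actin genes kept in the clustering, and 0 over the granule parts, with or without the Gm42418-led cluster. No share of all genes is given at 2-fold over the parts. The count was 1 without the Gm42418-led and cycling clusters, and the cause of these changes was not tested. The count of genes past 1.5-fold between OVX and sham was 0 and became 1, Lsp1 in each case, with cells filtered on genes and mitochondrial UMIs, with the Scrublet doublet removed, with genes over 1% of UMIs left out of the total, with median of ratios scaling, with hashtags assigned by share, with clusters weighted equally and with Gm42418 left out of the total; its ratio of 1.497 lay beside the limit. Alternatives of the clustering were not run for that count, since it is taken over all cells. Of the values of single genes, 124 of 179 between cell types, 80 of 170 among clusters and 51 of 110 between conditions stayed within their counting interval, and no fold past its limit changed direction. Thinned to 1000 UMIs, stromal-like cells held no UMI of Lsp1, so that alternative gives no ratio for it. Actg1, which was under the limit, was lower in the cycling cluster alone than in stromal-like cells (log2 ratio -0.40). Among genes at 25 CPM or more the backgrounds were 21.8% (cell types, of 5909 genes), 76.3% (clusters) and 23.8% (conditions, either way, against 22.4% at 100 CPM). The alternatives that left out the Gm42418-led cluster, the cycling cluster or Gm42418 were chosen after seeing the data. No paired analysis was possible because the results come from no test and each condition is 1 pool. Few UMIs limit Lsp1 in every cluster but the Slc2a3-led one, and the leukocyte genes in stromal-like cells.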

Other observations

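Acta2, which encodes the smooth muscle α-actin, was a further actin of the neutrophil-like cells. It was at 24.4 CPM in the cycling cluster, 52.7 in the Ltf-led, 412 in the Retnla-led, 324 in the Slc2a3-led and 434 CPM in the Gm42418-led cluster, against 9.13 CPM in stromal-like cells. In cells thinned to 1000 UMIs it was seen in 25.2% of neutrophil-like and 0.505% of stromal-like cells. The other smooth muscle markers listed with it, Rgs5, Myh11 and Des, were near 0: in the Slc2a3-led cluster the summed level of all 4 was 324.0 CPM, of which Acta2 held 323.7 CPM. Acta2 was at 425 CPM (OVX) against 181 CPM (sham) in neutrophil-like cells, a ratio of 2.35 (2.16 to 2.55). Within clusters its ratio was 2.17 (1.97 to 2.39) in the Slc2a3-led cluster and 8.52 (5.22 to 14.9) in the Retnla-led cluster, where sham cells held 16 UMIs. Dstn, the relative of Cfl1, went the other way, at 684 CPM (OVX) against 977 CPM (sham) in the same cells, a ratio of 0.700 (0.671 to 0.731), and its ratio was below 1 in all 7 clusters. These 2 genes were singled out after their values were seen, and with 1 pool per condition neither difference was tested.

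When the cells were divided into 7 clusters without separating the cycling cells, the cells of the Slc2a3-led cluster fell mostly into a cluster of 723 cells led by Gm12840 and one of 586 cells led by Ifitm6. The cluster with less Camp (20.7 against 1720 CPM) had less Coro1a, at 664 against 1174 CPM, less Tmsb4x, at 12022 against 17131 CPM, and less Pfn1, at 961 against 1436 CPM, while Actg1 was at 2738 and 2795 CPM.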
